A study of Mus musculus with 8 samples.

Results

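The Hox genes encode homeodomain transcription factors that give cells a position along the head-to-tail axis of the embryo. Here 38 Hox genes of the Hoxa, Hoxb, Hoxc and Hoxd clusters were followed across 2 segments of the newborn mouse aorta, and were chosen by name, not by their values. Of the 38, 36 had a row of their own among the 22180 genes analysed: 9 Hoxa, 10 Hoxb, 9 Hoxc and 8 Hoxd genes. Hoxa11 and Hoxd4 were left out because no row was annotated to them alone, and for Hoxb5, which had more than 1 row, the row with the highest mean was used. The 7 rows that the annotation shares between a Hox gene and another gene were not used.

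The samples were aortas of C57BL/6 mice at postnatal day 0. The ascending segment ran between the aortic valve and the ductus arteriosus, and the descending segment between the vena cava and the diaphragm. Wild-type mice, which are also called controls, were compared with mice lacking fibulin-4, an extracellular protein on which elastic fibre formation depends. Each array held RNA from a pool of 8 aortic sections of the same genotype and segment, and each of the 4 groups had 2 such pools, which gave 8 arrays. The labels call the pools biological replicates but do not say whether they share litters, so p-values measure the spread between these pools. They give no construct or tissue-specific driver for the knockout, and the gene deleted in it is not analysed here.

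Vertebrate Hox genes lie in clusters, and the order of genes in a cluster follows the order of their expression along the body: low-numbered genes reach far towards the head, and high-numbered genes are kept to the trunk and tail. Genes with the same number in different clusters are paralogs with closely related homeodomains. In the aorta this order meets a change of cell origin: smooth muscle of the ascending aorta comes in large part from cardiac neural crest and second heart field, and that of the descending aorta from somites of the trunk. Hox proteins bind DNA together with cofactors of the Pbx, Meis and Pknox families, and retinoic acid, Cdx factors and Polycomb proteins set where they are expressed. Below, paralog groups 1 to 3 are called anterior, 4 to 8 central and 9 to 13 posterior.

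All values are log2 values as deposited after RMA, the robust multi-array average. The mean of a Hox gene over the 8 arrays lay between 3.33 and 6.27, and 24 of the 36 means were below 5.03, the median over all genes; differences of dim genes are compressed by RMA. The 8 arrays had medians between 4.68 and 4.89. Both wild-type replicate 2 arrays had a narrower spread of values over genes, with interquartile ranges of 1.80 in the ascending and 1.74 in the descending aorta, against 2.14 to 2.28 on the other arrays. The smooth muscle genes Acta2 (12.10 to 12.45), Tagln (10.87 to 11.48) and Myh11 (8.70 to 9.22) were bright on every array. Precision is set by how few arrays there were: the standard error (SE) of a log2 difference had a median of 0.21 when both genotypes or both segments were averaged and 0.30 within one of them.

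The first question was which Hox genes differ between the segments when both genotypes are averaged, with 4 ascending and 4 descending arrays. The central Hox genes read higher in the descending aorta, without passing the test gene by gene: all 14 lay below 0 as ascending minus descending, with a median log2 difference of -0.58, against -0.03 in the 7 anterior and -0.10 in the 15 posterior genes. Of the posterior genes, only Hoxd10 (5.48) had a mean above 5.03, the median over all genes. Central means ran from 3.33 (Hoxc5) to 5.87 (Hoxb5). The part of dimness in the small posterior differences was not tested. No Hox gene was called by limma at an adjusted p under 0.05, where 5 genes, or 0.0225% of all 22180, were; the smallest adjusted p was 0.0989, for Hoxb6. At an unadjusted p under 0.05 there were 11 of 36 Hox genes, or 30.6%, against 6.61% of all genes. All 11 were higher in the descending aorta, a direction that held for 3.24% of all genes at that threshold, and 8 of the 11 were central; 0 were higher in the ascending aorta, against 3.37%. On 9 Hox genes (25%) every descending array lay above every ascending array, against 2.03% of all genes, and on 1 (2.78%) every ascending array lay higher, against 1.74%. The median difference of the 36 was -0.16, and 29 lay below 0, against 49.8% of all genes.

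**Figure D1:**
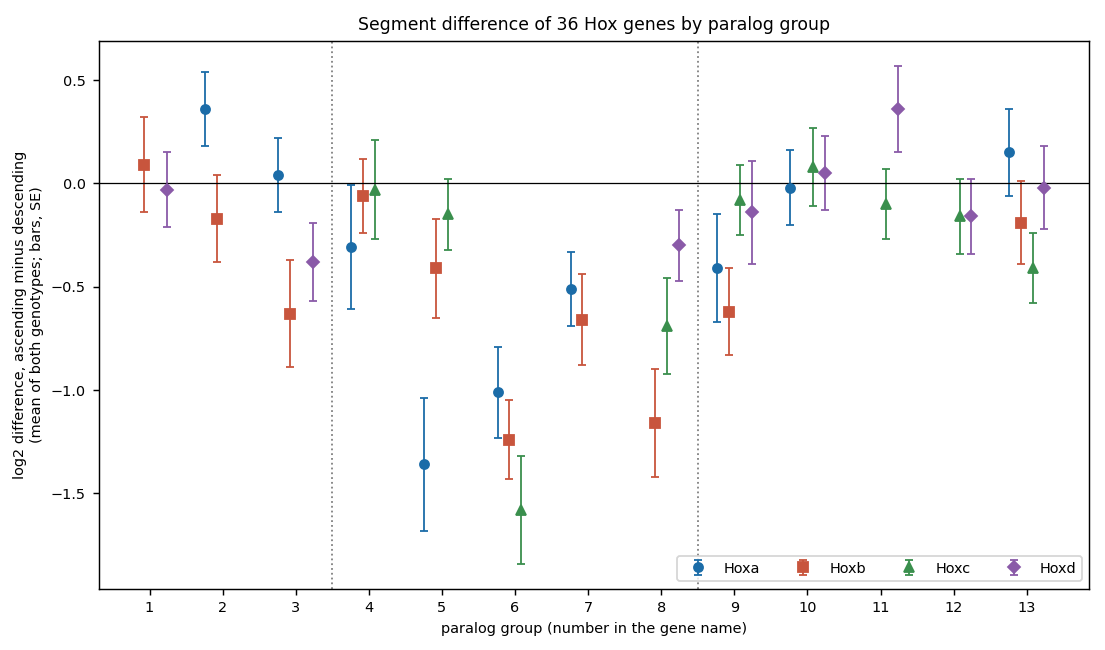
The log2 difference between segments (vertical axis, ascending minus descending, mean of both genotypes, bars are the SE) is plotted for 36 Hox genes by paralog group (horizontal axis), with a colour and symbol for each cluster and dotted lines between the anterior, central and posterior groups. All points of groups 4 to 9 lie below 0, deepest in group 6 at -1.01 to -1.58, and those of groups 1 and 2 and of 10 to 12 lie between -0.17 and 0.36.

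Paralog group 6 had the median farthest from 0 of the 13 paralog groups, at -1.24, and all 3 of its genes were without overlap, as were all 3 of group 8. Hoxb6, which helps pattern the thoracic skeleton, read 4.95 and 4.59 in wild-type ascending, 5.80 and 6.20 in wild-type descending, 4.26 and 4.20 in knockout ascending and 5.59 and 5.39 in knockout descending aorta. All 4 descending arrays lay above all 4 ascending ones, and the difference was -1.24 (SE 0.19), or 2.37-fold. By unadjusted p (7.46e-05) Hoxb6 was 16th of all 22180 genes.

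Hoxc6, its paralog in the Hoxc cluster, read 4.46 and 4.28 in wild-type ascending, 6.07 and 4.85 in wild-type descending, 3.76 and 3.72 in knockout ascending and 5.93 and 5.68 in knockout descending aorta. The groups did not overlap, although wild-type descending replicate 2 stood well below the other 3 descending arrays. The difference was -1.58 (SE 0.26), or 2.98-fold, with a limma adjusted p of 0.136. When the pair of narrow wild-type arrays was left out, wild-type descending replicate 2 among them, Hoxc6 stood at -1.84 with an adjusted p of 0.0472. That fit has 1 array in each wild-type group, takes its spread from the knockout arrays alone and assumes that wild-type pools vary alike.

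Hoxa6, the third paralog of the group, read 5.14 and 4.92 in wild-type ascending, 5.68 and 6.48 in wild-type descending, 5.05 and 5.35 in knockout ascending and 6.10 and 6.25 in knockout descending aorta. Again no descending array fell within the ascending range. The difference was -1.01 (SE 0.22), or 2.02-fold.

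Hoxa5, a central gene needed for the cervical and upper thoracic vertebrae and for lung development in the mouse, read 4.27 and 4.01 in wild-type ascending, 6.54 and 4.92 in wild-type descending, 4.96 and 4.71 in knockout ascending and 6.04 and 5.89 in knockout descending aorta. The segments overlapped by a single pair of arrays, since wild-type descending replicate 2 lay just under knockout ascending replicate 1. The difference was -1.36 (SE 0.32), or 2.57-fold. Its limma adjusted p was 0.317. In the fit without both narrow wild-type arrays, which drops the array that made the segments overlap and takes its spread from the knockout arrays alone, the difference was -1.70 and the adjusted p 0.0472.

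Hoxb8, known in mice for its role in the spinal cord and in myeloid progenitors, read 4.18 and 3.47 in wild-type ascending, 4.46 and 4.36 in wild-type descending, 3.45 and 2.65 in knockout ascending and 5.08 and 4.49 in knockout descending aorta. Knockout ascending replicate 2 was the lowest array, and the segments did not overlap. The difference was -1.16 (SE 0.26), or 2.23-fold. Hoxb8 was dim, with a mean of 4.02 over all arrays. Hoxc8, a paralog of Hoxb8 that patterns thoracic vertebrae and ribs, read 4.26 and 4.31 in wild-type ascending, 4.60 and 4.80 in wild-type descending, 3.24 and 4.18 in knockout ascending and 4.65 and 4.72 in knockout descending aorta. Its descending arrays kept within a narrow range above all ascending ones, and the difference was -0.69 (SE 0.23). Hoxd8, the third paralog, also had no overlap, with 5.44 to 5.67 in the ascending and 5.70 to 5.93 in the descending arrays, but its difference was only -0.30.

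The promoters of Hoxa5, Hoxa6 and Hoxb8 are shown because these are the genes among the 5 with the smallest p whose promoter RefSeq (assembly GRCm38.p6) lists in the table used here, and Hoxa2 is shown as the gene that stood on the other side. Each line gives the 250 bases before the annotated start of transcription, 5′ to 3′ on the strand of the gene, and capitals mark matches to any of 4 short motifs on either strand. These were TGATTNAT (a Hox-Pbx composite site, where N is any base), TTTATG (a Cdx site), TATAAA (the TATA box) and the direct repeat of the retinoic acid receptor.
Hoxa5 (chr6:52204588-52204837, minus strand): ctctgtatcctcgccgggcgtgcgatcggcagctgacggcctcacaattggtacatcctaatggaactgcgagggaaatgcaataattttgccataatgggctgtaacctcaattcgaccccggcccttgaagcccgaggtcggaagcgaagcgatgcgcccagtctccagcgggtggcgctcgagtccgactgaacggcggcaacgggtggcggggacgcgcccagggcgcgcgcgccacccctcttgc
Hoxa6 (chr6:52208673-52208922, minus strand): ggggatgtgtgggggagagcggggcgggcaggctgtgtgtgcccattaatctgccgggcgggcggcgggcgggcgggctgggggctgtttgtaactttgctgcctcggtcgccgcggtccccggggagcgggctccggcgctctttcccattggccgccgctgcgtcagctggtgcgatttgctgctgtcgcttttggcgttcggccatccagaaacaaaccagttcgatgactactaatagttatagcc
Hoxb8 (chr11:96281655-96281904, plus strand): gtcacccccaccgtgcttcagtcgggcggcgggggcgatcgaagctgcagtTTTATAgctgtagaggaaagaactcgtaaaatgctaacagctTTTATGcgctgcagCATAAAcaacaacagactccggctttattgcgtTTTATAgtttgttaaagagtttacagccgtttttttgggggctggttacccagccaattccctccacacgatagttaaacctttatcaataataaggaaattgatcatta
Hoxa2 (chr6:52164832-52165081, minus strand): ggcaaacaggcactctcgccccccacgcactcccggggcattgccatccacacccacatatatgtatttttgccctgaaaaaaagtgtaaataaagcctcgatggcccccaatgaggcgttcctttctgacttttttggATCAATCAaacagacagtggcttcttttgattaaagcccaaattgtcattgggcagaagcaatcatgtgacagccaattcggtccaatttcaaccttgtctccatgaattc
The Hoxb8 window held 2 matches to the Cdx motif and 2 to TATAAA, with no overlap between them. Both TATAAA matches lay on the strand opposite to the gene, so they are not placed as its TATA box. Hoxa2 held 1 match to the Hox-Pbx motif, and the Hoxa5 and Hoxa6 windows held none of the 4. Over 32851 such windows of all genes, the Hox-Pbx motif was found in 2.82%, the Cdx motif in 10.8%, the direct repeat in 0.0761% and the TATA box in 12.4%. Of the 38 Hox genes, 22 had a window, Hoxa11 and Hoxd4 among them, and these motifs were found in 2, 5, 0 and 4 genes. A gene counted if any of its windows matched. Hoxa10 and Hoxd11 had 2 windows each, so the counts are of genes and the percentages of windows. The share of G and C was 63.6% in the Hoxa5 and 65.2% in the Hoxa6 window, 44.4% for Hoxb8 and 46.4% for Hoxa2, with a median of 52.4% over all windows. A match is a run of letters and does not show that a factor binds there.

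In paralog group 7 the segments lay apart in the knockout alone, though limma called neither gene for a difference between genotypes. Hoxb7 read 4.38 and 3.79 in wild-type ascending, 4.29 and 4.06 in wild-type descending, 3.34 and 3.15 in knockout ascending and 4.79 and 4.17 in knockout descending aorta, a difference of -0.66 (SE 0.22). Hoxa7, its paralog, read 5.33 and 4.91 in wild-type ascending, 5.02 and 5.07 in wild-type descending, 4.51 and 4.49 in knockout ascending and 5.74 and 5.45 in knockout descending aorta, a difference of -0.51 (SE 0.18). In both genes the wild-type segments overlapped, and both knockout ascending arrays were the lowest of all. Hoxb7 was dim, with a mean of 4.0 over all arrays.

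Of group 5, Hoxb5 had 2 rows that did not match. On the brighter row, used here by rule, the ascending arrays ranged from 5.40 to 5.98 and the descending ones from 5.67 to 6.45, so they overlapped, and the difference was -0.41. On the other row the ascending arrays read 5.20 and 5.27 in wild-type and 4.86 and 4.85 in knockout, and the descending arrays 5.85 and 5.83 in wild-type and 6.33 and 5.59 in knockout. These did not overlap, and the difference on that row, examined after its values were seen, was -0.86 (SE 0.20), with a limma adjusted p of 0.327. Hoxc5 was dim, at 3.16 to 3.55 on all arrays, with a difference of -0.15. The group 4 genes Hoxa4, Hoxb4 and Hoxc4 differed by -0.31, -0.06 and -0.03; for Hoxa4, wild-type descending replicates 1 and 2 lay at 5.69 and 4.19, on either side of all the ascending arrays.

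Among posterior genes, Hoxb9, which acts in rib patterning, read 4.60 and 3.99 in wild-type ascending, 4.67 and 5.00 in wild-type descending, 4.48 and 4.18 in knockout ascending and 4.96 and 5.10 in knockout descending aorta. The descending arrays all lay higher, by a small margin, and the difference was -0.62 (SE 0.21). Hoxc13, best known for its role in hair and nail, read 4.33 and 4.01 in wild-type ascending, 4.76 and 4.90 in wild-type descending, 4.32 and 4.38 in knockout ascending and 4.44 and 4.59 in knockout descending aorta. The difference was -0.41 (SE 0.17), again without overlap. The other 3 group 9 genes, Hoxa9, Hoxc9 and Hoxd9, differed by -0.41, -0.08 and -0.14 with overlapping arrays. The 7 measured genes of groups 10 to 12 lay between -0.16 (Hoxc12) and 0.36 (Hoxd11), none at an unadjusted p under 0.05. Hoxa13, Hoxb13 and Hoxd13 differed by 0.15, -0.19 and -0.02.

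Of the 7 anterior genes, 4 lay below 0 and 3 above. Hoxa2, which patterns the second branchial arch and its neural crest, read 6.59 and 6.51 in wild-type ascending, 6.20 and 5.77 in wild-type descending, 6.41 and 6.29 in knockout ascending and 6.26 and 6.11 in knockout descending aorta. It was the 1 Hox gene whose ascending arrays all lay above the descending ones, and it is named for that, after its values were seen. The difference was 0.36 (SE 0.18), with a 95% interval of -0.04 to 0.77 and an unadjusted limma p of 0.0718. The group 3 genes went different ways: Hoxa3 differed by 0.04, with arrays between 4.96 and 5.36, while Hoxb3 read 5.96 and 5.43 in wild-type ascending, 6.33 and 5.18 in wild-type descending, 4.87 and 4.92 in knockout ascending and 6.14 and 6.04 in knockout descending aorta. For Hoxb3 the wild-type arrays overlapped widely and the knockout arrays did not, and the difference was -0.63 (SE 0.26). Hoxd3 read 4.39 and 4.24 in wild-type ascending, 4.48 and 4.87 in wild-type descending, 4.32 and 3.94 in knockout ascending and 4.52 and 4.54 in knockout descending aorta, a difference of -0.38 (SE 0.19) without overlap. Hoxb1, Hoxd1 and Hoxb2 differed by 0.09, -0.03 and -0.17.

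**Figure D2:**
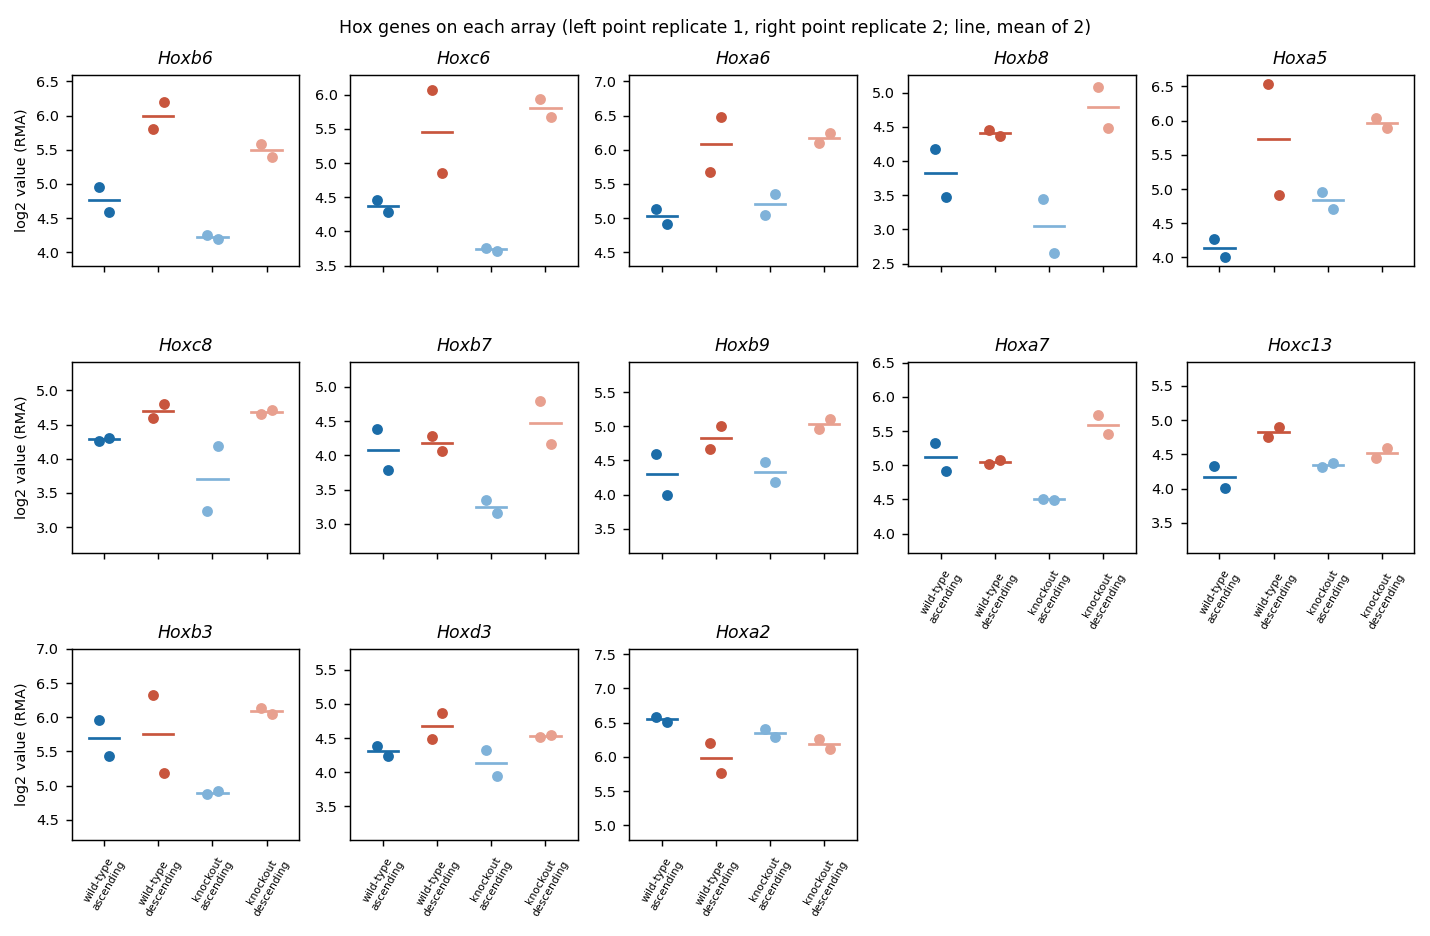
Log2 values (vertical axis, each panel spans the same range of 2.8) of 13 Hox genes are plotted for the 4 groups; points are arrays, replicate 1 on the left, and lines are means of 2. The descending arrays lie higher in Hoxb6, Hoxc6 and Hoxa6 in both genotypes, in Hoxa7, Hoxb7 and Hoxb3 they do so in the knockout and overlap in wild-type, and in Hoxa2 the ascending arrays lie higher.

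By cluster, the median difference was -0.31 in Hoxa, -0.51 in Hoxb, -0.15 in Hoxc and -0.09 in Hoxd genes, and the 11 genes at an unadjusted p under 0.05 were 3 Hoxa, 5 Hoxb, 3 Hoxc and 0 Hoxd genes. The Hoxd genes measured include 1 central gene, so cluster and paralog group are not independent here. The count of 11 lay between 7 and 13 when single arrays were left out: it was 7 without knockout ascending replicate 2 and 7 without knockout descending replicate 1. It was 10 without both narrow wild-type arrays, where 2 genes, Hoxa5 and Hoxc6, passed with the spread of the knockout arrays alone.

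Markers of other cells differed between the segments too, and their part in the Hox values was not tested. All 7 skeletal muscle markers were higher in the ascending aorta (median 1.63), with a mean log2 level of 7.71 and 9.27 in wild-type and 7.0 and 5.84 in knockout ascending arrays against 5.56 to 6.40 in the descending ones. All 6 brown fat markers (median -0.94) and all 6 endothelial markers (-0.53) were higher in the descending aorta, as were 5 of 6 cardiomyocyte markers (-0.64). Mean levels of the brown fat markers were 4.96 to 6.25 in the ascending and 5.67 to 7.65 in the descending arrays, those of the endothelial markers 6.30 to 7.52 and 7.11 to 7.91, and those of the cardiomyocyte markers 6.87 to 7.32 and 6.74 to 8.31. Medians of the other lists were 0.16 for smooth muscle, -0.14 for adventitial fibroblast, -0.14 for neural, 0.30 for mesothelium, 0.02 for cartilage and -0.17 for myeloid markers. None of these markers was called by limma at an adjusted p under 0.05. In pooled tissue, fewer cells of a type and less RNA per cell cannot be told apart. Of 7 transcription factors of the heart and outflow tract (Gata4, Isl1, Tbx1, Tbx20, Hand2, Nkx2-5 and Tbx5), 3 lay above 0 and 4 below. Their median was -0.20. The 2 at an unadjusted p under 0.05, Hand2 (0.93, SE 0.18) and Tbx20 (0.90, SE 0.21), were both higher in the ascending aorta.

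The segment difference was then taken in each genotype alone, from arrays that the genotypes do not share. In wild-type 5 of 36 Hox genes (13.9%) were at an unadjusted p under 0.05, against 6.19% of all genes, and none was called at an adjusted p under 0.05, against 0.00902% of all genes. The 5 were Hoxb6 (-1.23, SE 0.27), Hoxa5 (-1.59, SE 0.45), Hoxa6 (-1.05, SE 0.31), Hoxc6 (-1.09, SE 0.37) and Hoxc13 (-0.66, SE 0.25), all higher in the descending aorta, where 2.98% of all genes were at that threshold in this direction and 3.21% in the other. Of the 36, 23 lay below 0, against 48.3% of all genes. The descending arrays lay above the ascending ones in 10 Hox genes (27.8%), against 14.1% of all genes, and the reverse held in 5 (13.9%), against 15.9%. The median of the 36 was -0.09, and 0.02 without wild-type descending replicate 1; the central genes had a median of -0.31, with 12 of 14 below 0. Without wild-type ascending replicate 1, the count of 5 was 8.

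In the knockout 10 of 36 Hox genes (27.8%) were at an unadjusted p under 0.05, against 4.04% of all genes, again all higher in the descending aorta (2.04% of all genes, with 2% in the other direction), and none was called at an adjusted p under 0.05, against 0% of all genes. Hoxc6 stood at -2.06 (SE 0.37), or 4.18-fold, and Hoxb8 at -1.74 (SE 0.36), or 3.33-fold. Hoxb6 stood at -1.26 (SE 0.27), Hoxb7 at -1.23 (SE 0.31), Hoxb3 at -1.19 (SE 0.37), Hoxa5 at -1.13 (SE 0.45) and Hoxa7 at -1.09 (SE 0.26). Hoxc8 (-0.98), Hoxa6 (-0.97) and Hoxb9 (-0.70) complete the 10. The descending arrays lay above the ascending ones in 23 Hox genes (63.9%), against 20.8% of all genes, among them 13 of the 14 central ones, and the reverse held in 2 (5.56%), against 18.3%. Of the 36, 29 lay below 0, against 51.7% of all genes. The median was -0.30 over the 36 and -0.98 over the central genes. Without knockout descending replicate 2, the count of 10 was 6. Hoxc6 was called with array weights (limma adjusted p = 0.0346), which were higher for the knockout arrays. All 6 endothelial markers were higher in the knockout descending than ascending aorta, 5 of them at an unadjusted p under 0.05 (median -0.88), beside a median of -0.20 and 0 of 6 in wild-type; their part was not tested.

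Across the 36 Hox genes the segment differences of the 2 genotypes correlated at 0.571 (Pearson) and 0.422 (Spearman), beside 0.157 and 0.147 across all 22180 genes. These are descriptions across genes, which are not independent: Hox genes of a cluster are neighbours, and each genotype's values come from the same 4 arrays. In 21 Hox genes both differences lay below 0 and in 5 both lay above. Hoxb6 and Hoxa6 were nearest to equal among the genes at an unadjusted p under 0.05 in both, with differences between genotypes of -0.03 (95% interval -0.87 to 0.81) and 0.08 (-0.90 to 1.05).

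**Figure D3:**
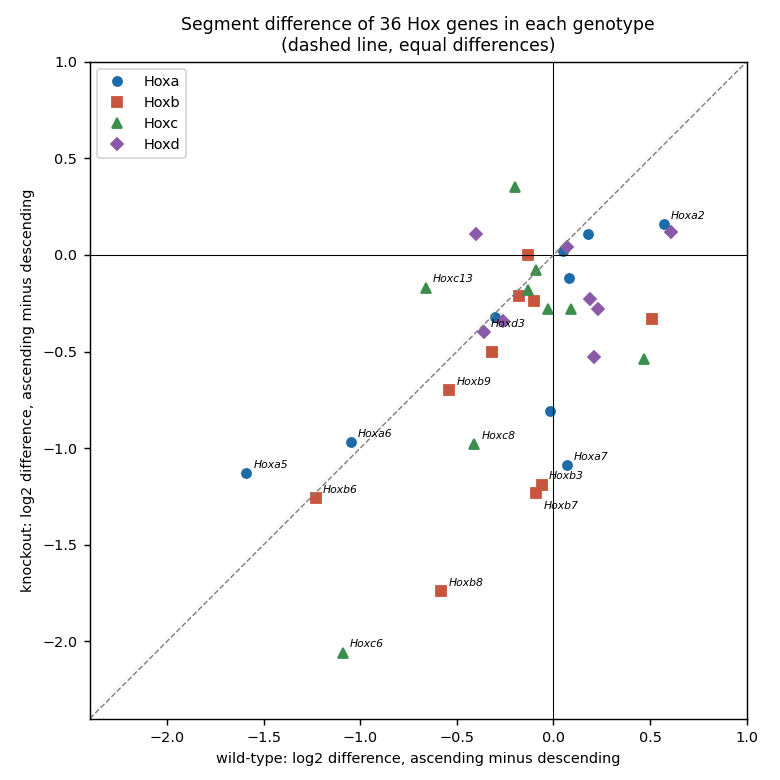
The log2 difference between segments (ascending minus descending) is plotted for 36 Hox genes in wild-type (horizontal axis) and in the knockout (vertical axis), with a colour and symbol for each cluster and a dashed line where both are equal. Hoxb6 and Hoxa6 lie near the line in the lower left, Hoxb7, Hoxb3 and Hoxa7 lie near 0 in wild-type and between -1.09 and -1.23 in the knockout, and 29 of the 36 points lie below the line.

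Whether the segment difference itself differed between genotypes was tested as an interaction. None of the 36 Hox genes was called by limma (0 of 22180 genes were, or 0%), with an adjusted p of 1.0 for every Hox gene. At an unadjusted p under 0.05 there were 3 (8.33%), against 3.3% of all genes: Hoxa7 at -1.17 (95% interval -1.99 to -0.35), Hoxb7 at -1.15 (-2.13 to -0.17) and Hoxb8 at -1.15 (-2.30 to -0.00). All 3 were negative, as were 1.68% of all genes at that threshold, with 1.62% positive. For these genes the knockout had the wider gap between segments, and 29 of 36 Hox genes had a negative interaction against 52.4% of all genes. Of the 3, Hoxb7 (mean 4.0) and Hoxb8 (mean 4.02) were in the dimmest 25% of genes, whose limit was 4.08. In the same comparison 7 of 7 skeletal muscle markers (median -2.51, 6 at an unadjusted p under 0.05) and 5 of 6 endothelial markers (-0.80, 1 at that threshold) were negative, and their part was not tested. Single arrays moved the count of 3: it was 1 without knockout descending replicate 1 and 5 without wild-type ascending replicate 2 or wild-type descending replicate 1.

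The effect of the knockout was read in each segment. In the ascending aorta 26 of 36 Hox genes lay below 0 (50.7% of all genes did), with a median log2 change of -0.18 beside -0.01 over all genes, and none was called by limma at an adjusted p under 0.05, against 0% of all genes. At an unadjusted p under 0.05 there were 2 (5.56%), fewer in share than the 8.9% of all genes: Hoxb7 at -0.84 (SE 0.31) and Hoxa7 at -0.62 (SE 0.26). Of all genes, 3.6% were at that threshold lower and 5.31% higher in the knockout. In 15 Hox genes (41.7%) both knockout arrays lay below both wild-type arrays, against 18.3% of all genes; those with the greatest differences after Hoxb7 were Hoxb3 (-0.80), Hoxb8 (-0.78), Hoxb1 (-0.65), Hoxc6 (-0.63), Hoxa7, Hoxc8 (-0.58) and Hoxb6 (-0.54). Hoxa5 went the other way, at 0.70 (SE 0.45), with both knockout arrays above both wild-type ones, as in Hoxb4 (0.13); that held in 5.56% of Hox genes, against 21.5% of all genes. Beside this, 7 of 7 skeletal muscle markers (median -1.99), 6 of 6 endothelial markers (-0.91), 6 of 6 brown fat markers (-0.72) and 4 of 4 mesothelial markers (-0.79) read lower and 5 of 5 myeloid markers (1.23) higher in the knockout ascending aorta, and their part was not tested. After centring each array on its median 20 of the 36 Hox genes lay below 0 (median -0.11), and after quantile normalization 23 (-0.10). The count of 2 was 0 after centring each array on its median and 0 after quantile normalization. It was 6 without wild-type ascending replicate 2 and 5 with either of the wild-type descending arrays left out. It was 7 without both narrow wild-type arrays, and 1 without wild-type ascending replicate 1, knockout ascending replicate 2 or either knockout descending array.

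In the descending aorta 26 of 36 Hox genes lay above 0 and 10 below (46.3% of all genes lay below), with a median of 0.11 beside 0.03 over all genes, and none was at an unadjusted p under 0.05, where 5.95% of all genes were (2.32% lower and 3.63% higher), or called by limma (0.00451% of all genes). Hoxa7 stood highest at 0.55 (SE 0.26, 95% interval -0.03 to 1.13), and Hoxb6 lowest at -0.51 (SE 0.27, -1.10 to 0.09). In 6 Hox genes (16.7%) both knockout arrays lay above both wild-type ones, against 21.6% of all genes, and in 4 (11.1%) below, against 15.8%. Beside this, 6 of 6 brown fat markers read lower in the knockout descending aorta (median -1.39, 4 at an unadjusted p under 0.05), while 5 of 6 cardiomyocyte markers (1.12, 3 at that threshold), 5 of 5 myeloid markers (0.57, 2 at that threshold) and 6 of 7 skeletal muscle markers (0.66, 1 at that threshold) read higher, and their part was not tested. Centring each array on its median moved the median of all genes by 0.113 in this comparison and that of the Hox genes to 0.22. The median of the Hox genes was -0.08 without wild-type descending replicate 2, and 6 genes were at an unadjusted p under 0.05 without wild-type descending replicate 1, and 1 without either wild-type ascending array.

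Averaged over both segments, Hoxb6 was the 1 Hox gene (2.78%, against 11.4% of all genes, 3.83% lower and 7.57% higher) at an unadjusted p under 0.05, at -0.52 (SE 0.19), with a limma adjusted p of 0.365. Both its knockout ascending arrays lay below both wild-type ascending arrays, and both its knockout descending arrays below both wild-type descending ones. That count was 3 without wild-type descending replicate 1, 2 without either replicate 2 of the wild-type, and 0 without wild-type ascending replicate 1 or knockout descending replicate 2. Hoxc9 (-0.24, SE 0.17) was the 1 gene whose 4 knockout arrays all lay below the 4 wild-type ones, against 1.98% of all genes, and 0 lay above, against 4.76%. None of the 36 was called, where 0.0721% of all genes were. Of the 36, 26 lay below 0, against 50.2% of all genes. Their median was -0.06 and turned to 0.04 after centring and 0.02 after quantile normalization, so the direction of the family as a whole was not settled. The comparisons of each genotype and of each segment share arrays, and their values are set side by side here, not as independent evidence.

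**Figure D4:**
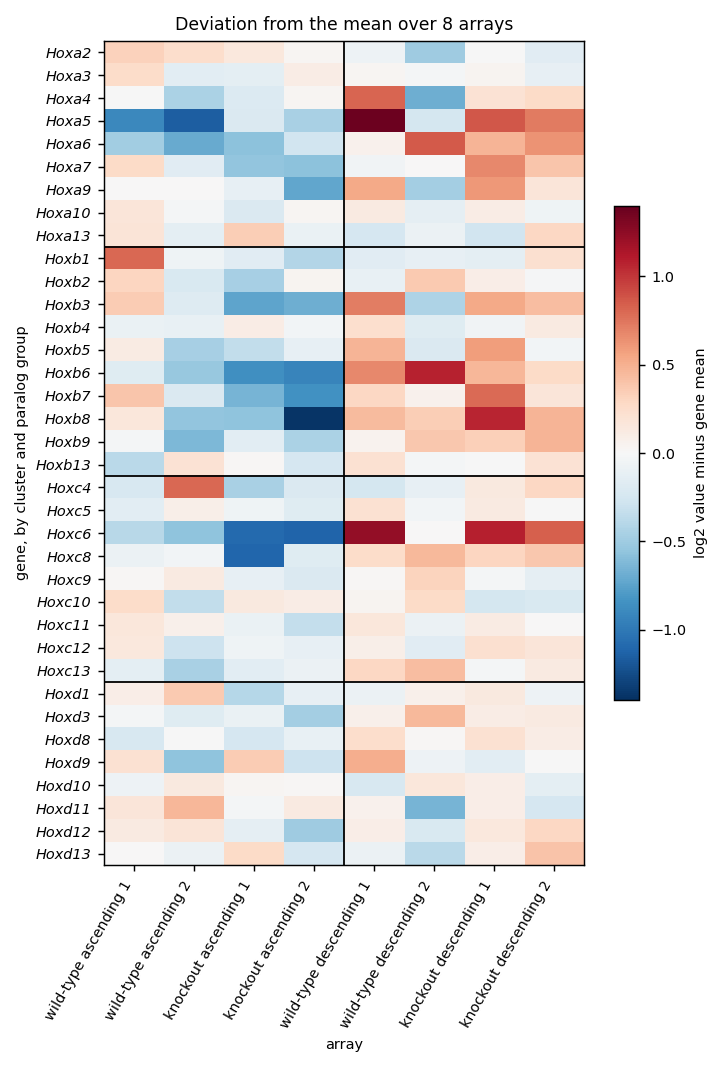
Each row is 1 of 36 Hox genes, ordered by cluster and paralog group, each column is an array, and the colour gives the log2 value minus the gene's mean over the 8 arrays. Rows of Hoxa5, Hoxa6, Hoxb6, Hoxb8 and Hoxc6 are blue in the 4 ascending columns on the left, with Hoxb8 in wild-type ascending replicate 1 as the exception, and mostly red in the descending columns.

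Other genes of the Hox system were read from the same fit, in which 6.61% of all genes were at an unadjusted p under 0.05 in the averaged segment difference. Of the cofactors, 8 of 9 listed genes were measured and 0 were at an unadjusted p under 0.05 in the averaged segment difference; their median was -0.09. Of 9 measured upstream regulators, such as the Cdx genes, and of 17 measured Polycomb and Trithorax genes, 0 were at that threshold. Of 16 measured genes of retinoic acid synthesis, breakdown and reception 2 were, both higher in the descending aorta: Cyp26a1, which breaks down retinoic acid, at -0.52 (SE 0.21), and Aldh1a3, which makes it, at -0.44 (SE 0.19). None of these genes was called by limma at an adjusted p under 0.05 in any of the 3 segment comparisons. Cyp26a1 was dim, at 3.21 to 4.45 on all arrays. The ascending and descending arrays overlapped in both Cyp26a1 and Aldh1a3. In the knockout effect averaged over segments, where 11.4% of all genes were at an unadjusted p under 0.05, so were 0 of 8 cofactors, 2 of 9 upstream regulators (Zfp703 at 0.64 and Egr2 at 0.44), 3 of 16 retinoic acid genes (Aldh1a3 at 0.54, Rxra at 0.44 and Rarb at -0.49) and 3 of 17 Polycomb and Trithorax genes (Men1 at 0.66, Rnf2 at 0.48 and Kdm6b at 0.44), none of them called. For Egr2 and Rarb the averages came mostly from the ascending aorta. There Egr2 read 4.47 and 4.90 in wild-type and 5.63 and 5.68 in knockout, against 5.21 and 4.79 and then 4.97 and 4.86 in descending aorta. Rarb read 5.80 and 5.43 in wild-type and 4.83 and 4.71 in knockout ascending aorta, against 5.12 and 5.40 and then 5.33 and 4.93 in descending aorta.

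Within the Hox clusters, 7 of 17 listed noncoding transcripts and microRNA genes had a row of their own. Hoxd3os1, a transcript named as antisense to Hoxd3, read 4.57 and 4.37 in wild-type ascending, 5.15 and 4.83 in wild-type descending, 4.43 and 4.23 in knockout ascending and 4.69 and 4.90 in knockout descending aorta, a difference of -0.49 (SE 0.18). Its descending arrays all lay higher, as did those of Hoxd3, and the limma adjusted p was 0.669. Hoxaas3 read 5.68 and 5.61 in wild-type ascending, 5.78 and 5.53 in wild-type descending, 4.66 and 4.70 in knockout ascending and 5.16 and 4.91 in knockout descending aorta. All knockout arrays lay below all wild-type arrays, an averaged knockout effect of -0.79 (SE 0.17) with a limma adjusted p of 0.17.

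The microRNA genes of the clusters are shown with the mature sequences that RefSeq gives. Capitals mark the seed (bases 2 to 8), which guides much of the pairing of microRNAs with transcripts, though not all of it. In the mouse miR-196a is known to direct cleavage of Hoxb8 mRNA.
miR-196a-5p (from Mir196a-1, chr11:96265187-96265208, and Mir196a-2, chr15:102973365-102973386, both plus strand): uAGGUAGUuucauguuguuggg
miR-10b-5p (from Mir10b in the Hoxd cluster, chr2:74726074-74726096, plus strand): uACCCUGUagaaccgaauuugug
Both miR-196a genes give the same mature sequence. Averaged over genotypes, their rows differed little between segments: 0.07 (SE 0.16) for Mir196a-1 and -0.06 (SE 0.19) for Mir196a-2. Mir196a-1 read 4.02 to 4.34 on all arrays. Mir196a-2 went opposite ways in the genotypes, which the average hides. It read 4.77 and 4.36 in wild-type ascending against 4.39 and 4.07 in wild-type descending aorta. In the knockout it read 4.27 and 4.51 in ascending against 4.77 and 4.94 in descending aorta, without overlap. Mir10b read 2.58 and 1.91 in wild-type ascending, 1.74 and 1.24 in wild-type descending, 1.82 and 1.68 in knockout ascending and 1.94 and 1.59 in knockout descending aorta, near the bottom of the scale. Its averaged segment difference was 0.37 (SE 0.22). Arrays of this kind measure RNA of the hairpin gene, not the mature microRNA.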

How the data were processed

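Each of the 8 pools gave total RNA that was amplified and biotin-labelled, according to the protocols in the labels. Values are on the log2 scale as the authors deposited them. The submitters' processing notes name Affymetrix Expression Console and RMA, without versions; the probe set definition was not given in the sources used here. The table held 41345 rows: 23521 with 1 annotated gene symbol, 1814 with several and 16010 not named. For each of 22180 genes the single-symbol row with the highest mean was kept.

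All genes on all 8 arrays were fitted with limma 3.58.1 (R 4.3.3) as 4 group means, with 4 residual and 5.52 prior degrees of freedom, and Benjamini-Hochberg adjustment over all genes in each of 7 comparisons. Every Hox gene with a row was read from that fit. Values per array are given for the 12 Hox genes with the smallest p in the averaged segment difference, since none was called. Listed pathway genes are named where they had an unadjusted p under 0.05 in the averaged segment difference or the averaged knockout effect. Both miR-196a genes and Mir10b are shown for their sequence. Other listed genes at that threshold only in other comparisons are not named. Markers are given by list. The genes, lists and alternatives were chosen with earlier results of these data known. Up to 18 alternatives a comparison were tried: 2 scalings, a filter on dim genes, the row per gene, a replicate block, variance options, array weights and leaving out arrays. Promoters and microRNAs are RefSeq's (GRCm38.p6). The procedure was tested on simulated data. Figures were drawn with matplotlib 3.10.9.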

Additional observations from a re-analysis of the deposited data

How the results depend on the processing

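The count of called Hox genes was 0 in all 7 comparisons. It was 2 (Hoxa5 and Hoxc6) in the averaged segment difference without both wild-type replicate 2 arrays, a fit with 1 array in each wild-type group whose spread comes from the knockout arrays, 1 (Hoxc6) in the knockout segment difference with array weights, and 0 in every other alternative.

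Counts at an unadjusted p under 0.05 moved as follows. With single arrays left out, where the lone array of a group is assumed to vary like the other groups, they ranged from 7 to 13 in the averaged segment difference, 4 to 8 in wild-type, 6 to 11 in the knockout, 0 to 3 in the averaged knockout effect, 1 to 6 in the ascending and 0 to 6 in the descending knockout effect, and 1 to 5 in the difference between segments. After centring each array the averaged, ascending and descending knockout effects had 0, 0 and 1 genes, and after quantile normalization the ascending and descending ones had 0 and 1. Leaving out the dimmest 25% of genes dropped 8 Hox genes, with Hoxb7 and Hoxb8 among them and so not tested. The ascending knockout effect then had 1 and the difference between segments 1. With every row tested or with array weights the ascending effect had 1, and with only the groups compared 4. Without both narrow wild-type arrays there were 3 in the averaged knockout effect, 7 in the ascending one and 5 in the difference between segments. Apart from the dropped genes, the cause of these moves was not tested.

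The array numbers were not shown to pair the pools: deviations of same-numbered arrays from their group means correlated at -0.08 to 0.29 across genes. The 0.29 was between wild-type ascending and wild-type descending, whose replicate 2 arrays were the narrow ones, and the other pairs had -0.08 to 0.12. Whether these wild-type arrays share pups or handling was not tested. With the replicate block the ascending knockout effect had 4 genes and the difference between segments 5; the block called no Hox gene. Hoxb5 was not called on its lower-mean row either, a choice added after seeing the data (-0.86).

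Precision is limited by 2 arrays a group.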
